A study of Mus musculus with 6 samples.

Results

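Kruppel-like factors (KLFs) were examined in whole liver of mice given interleukin-6 (IL-6) or saline. The family was taken as the probe sets whose platform-table symbol is Klf2, Klf3, Klf4, Klf5, Klf6, Klf7, Klf10, Klf11, Klf12 or Klf13, which gave 10 genes of the 19938 measured, each with 1 probe set. The IL-6 group was 3 liver samples from C57BL6 males, 10 weeks old, fasted for 16 h and taken 1 h after an intraperitoneal injection of 100 ng IL-6 per mouse. The saline group was 3 liver samples from males of the same strain and age after the same fast, taken 1 h after saline. Each sample's RNA was hybridised to its own Affymetrix array, and values are log2 expression values made by the authors with RMA. Whether each array came from a separate mouse is not spelled out in the labels, so p-values cover only the variation among these samples, which may be technical.

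KLFs are zinc-finger transcription factors that bind GC-rich and CACCC sequences in promoters through a conserved set of fingers at their carboxyl end. They differ in the rest of the protein. One branch, with KLF2, KLF4, KLF5, KLF6 and KLF7, acts mainly as activators, another, with KLF10, KLF11 and KLF13, recruits the SIN3 corepressor, and KLF3 and KLF12 bind the CtBP corepressor. Several respond quickly to growth factors, cytokines or blood flow, and in liver they are known from endothelial cells, from stellate cells after injury and from hepatocyte metabolism.

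No KLF passed the test. In limma, with Benjamini-Hochberg adjustment over 19938 genes, 0 of the 10 members had an adjusted p under 0.05, where 0.421% of all genes did (0.386% higher and 0.0351% lower), so a count of 0 among 10 is close to that background. Klf6 came nearest, at 1.52-fold in the IL-6 livers over saline (limma adjusted p = 0.0647), followed by Klf13 at 1.26-fold (limma adjusted p = 0.157) and Klf3 at 0.812-fold (limma adjusted p = 0.482). At an unadjusted limma p under 0.05 there were 5 members, Klf3, Klf6, Klf7, Klf10 and Klf13, against 6.62% of all genes. In these 5 the IL-6 and saline arrays did not overlap, with IL-6 above saline in 4 and below it in Klf3, and the same separation held for 11.6% of all genes (6.15% above and 5.48% below). The median log2 difference of the 10 members was 0.003, as it was for all genes (0.003), with a range from -0.30 to 0.60. All differences are IL-6 minus saline.

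A known target of IL-6 served as a check of the treatment. Socs3, the feedback inhibitor of JAK-STAT signalling, averaged 9.55 ± 0.09 in IL-6 livers and 6.40 ± 0.22 in saline livers (SD, n = 3 each; limma adjusted p = 1.45e-06). Saa1, an acute-phase gene, differed by 3.84 ± 0.28, and Stat3 by 0.52 ± 0.09 at the edge of the threshold (limma adjusted p = 0.04996), which it missed under 8 of 18 alternatives. For a difference, ± is the limma standard error, here and below. Pearson correlations over all 35556 probe sets were 0.989 to 0.991 between arrays of a group and 0.987 to 0.990 between groups. The second principal component, with 23.1% of the variance, set IL-6 replicate 3 and saline replicate 2 (-13.15 and -11.6) apart from the other arrays (1.83 to 9.65), and the labels name no batch.

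Upstream sequence is shown because KLFs bind GC-rich and CACCC sequences, and KLF genes can carry them. RefSeq promoter windows on GRCm38.p6 matched 8 of the 10 genes (no entry for Klf5 and Klf10), and the 250 bases before the annotated start were read. The 4 shown are those of Klf6, Klf13 and Klf3, which had the largest differences in either direction, and of Klf2, whose levels overlapped. Capitals mark matches on either strand to the CCAAT box, to the GC box, searched as GGGCGGG, to a MEF2 site and to the CACCC box. The last of these was searched as CCACCC. In Klf13 the CACCC box overlaps a GC box.
Klf6, chr13:5861239-5861488, plus strand: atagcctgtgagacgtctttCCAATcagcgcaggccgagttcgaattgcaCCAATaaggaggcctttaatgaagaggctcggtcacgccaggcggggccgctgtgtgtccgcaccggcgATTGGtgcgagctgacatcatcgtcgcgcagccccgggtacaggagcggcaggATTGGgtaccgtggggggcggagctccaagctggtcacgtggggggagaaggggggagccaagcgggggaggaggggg
Klf13, chr7:63938916-63939165, minus strand: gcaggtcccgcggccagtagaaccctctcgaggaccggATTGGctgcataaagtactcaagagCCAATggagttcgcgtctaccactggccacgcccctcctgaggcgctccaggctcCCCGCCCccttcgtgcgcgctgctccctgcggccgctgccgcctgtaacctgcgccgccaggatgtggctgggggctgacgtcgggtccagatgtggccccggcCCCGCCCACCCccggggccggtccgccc
Klf3, chr5:64803271-64803520, plus strand: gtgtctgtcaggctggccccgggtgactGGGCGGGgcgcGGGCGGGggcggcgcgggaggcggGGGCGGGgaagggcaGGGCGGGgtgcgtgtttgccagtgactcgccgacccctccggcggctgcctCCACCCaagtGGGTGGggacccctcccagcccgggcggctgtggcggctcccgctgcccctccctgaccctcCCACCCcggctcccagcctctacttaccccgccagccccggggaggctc
Klf2, chr8:72318812-72319061, plus strand: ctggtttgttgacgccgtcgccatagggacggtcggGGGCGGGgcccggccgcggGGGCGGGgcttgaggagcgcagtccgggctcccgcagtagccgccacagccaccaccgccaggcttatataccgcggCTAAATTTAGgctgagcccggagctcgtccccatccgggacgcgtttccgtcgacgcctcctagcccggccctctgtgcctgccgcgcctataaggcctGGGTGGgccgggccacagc

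The Klf6 window held 4 CCAAT boxes, the first at bases -230 to -226 and the last at -78 to -74 from the start, and an E-box (CACGTG). It held no match to GGGCGGG or CCACCC, though the shorter GGGCGG, which was not searched, can be read in it. The Klf13 window held 2 CCAAT boxes, 2 GC boxes and 1 CACCC box. The Klf3 window held 4 GC boxes and 3 CACCC boxes and no CCAAT box. The Klf2 window held 2 GC boxes, 1 CACCC box and a MEF2 site at -118 to -109, a motif found in 0.508% of all 32851 windows. The KLF windows were rich in GC, with a median of 71.4% over 8 windows against 52.4% over all windows. A GC box was in 5 of the 8 and in 23.4% of all, a CACCC box in 4 of the 8 and in 28.1% of all, and a CCAAT box in 3 of the 8 and in 33.8% of all.

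Motifs of factors that act early after cytokines were also searched on both strands. The STAT motif TTCNNNGAA was in none of the 8 windows and in 7.02% of all. The AP-1 motif TGANTCA (6.75% of all windows), the CArG box (1.47%), the full CRE TGACGTCA (1.55%) and the NF-kappaB site (7.25%) were likewise in none of the 8. The CRE core TGACG, which the full CRE contains, was in the windows of Klf2, Klf4, Klf12 and Klf13, against 17.8% of all. The E-box was in 3 of the 8 (6.02% of all) and TATAAA in 1, that of Klf12 (12.4% of all). These matches describe letters in a short window and not binding.

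**Figure D1:**
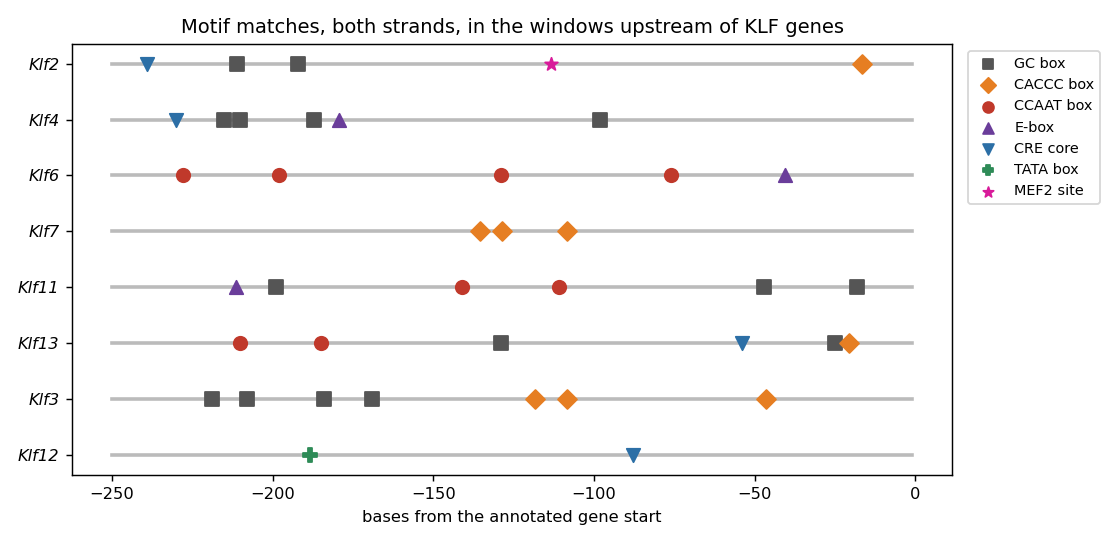
Motif matches on both strands in the 250 bases upstream of 8 KLF genes; the horizontal axis is the distance in bases from the annotated gene start, each line is a gene and each symbol is 1 match. Klf6 carries 4 CCAAT boxes and no match to the GC box as searched (GGGCGGG), and Klf3 carries 4 GC boxes and 3 CACCC boxes.

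Among the activator-type members, Klf6 encodes a factor that is induced early in stellate cells of injured liver and is also made by hepatocytes. It measured 6.66, 6.85 and 7.04 in IL-6 replicates 1, 2 and 3, against 6.27, 6.12 and 6.36 in saline replicates 1, 2 and 3. Every IL-6 array lay above every saline array, and the IL-6 arrays were spread more widely than the saline ones (SD 0.19 and 0.12). The log2 difference was 0.60 ± 0.11 (standard error, limma adjusted p = 0.0647, unadjusted p = 0.000315), with an unadjusted 95% interval of 0.36 to 0.85. This places Klf6 at rank 96 of all genes by p, just outside the 84 called genes. The threshold was passed under 5 of the alternative settings, among them a filter on dim genes and a variance prior with a trend (limma adjusted p = 0.0411 and 0.0312). With IL-6 replicate 3 and saline replicate 2 both left out, the difference was 0.44 (limma adjusted p = 0.448).

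Klf7, a widely expressed member known from neuronal development and adipocytes, measured 6.06, 6.07 and 6.04 in the IL-6 arrays and 5.99, 5.77 and 5.83 in the saline arrays. The IL-6 arrays lay close together and above all saline arrays, with saline replicate 1 only slightly lower. Its difference was 0.19 ± 0.08 (limma adjusted p = 0.713).

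Klf2, which keeps endothelial cells quiescent and responds to blood flow, measured 6.72, 6.85 and 6.58 in the IL-6 arrays and 6.71, 6.57 and 6.78 in the saline arrays. Klf4, a factor of endothelium, macrophages and epithelia, measured 5.62, 5.79 and 5.50 in the IL-6 arrays and 5.80, 5.49 and 5.79 in the saline arrays. In both genes the 2 groups overlapped, and the lowest arrays were IL-6 replicate 3 and saline replicate 2. The differences were 0.03 ± 0.09 for Klf2 and -0.06 ± 0.11 for Klf4 (limma adjusted p = 0.979 and 0.970). The unadjusted 95% intervals ran from 0.882-fold to 1.18-fold for Klf2 and from 0.810-fold to 1.14-fold for Klf4, and neither reaches the 1.52-fold of Klf6. The sign of the difference turned in Klf2 without IL-6 replicate 2 or saline replicate 2, and in Klf4 without IL-6 replicate 3.

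Klf5, a factor of proliferating epithelium, measured 5.64, 5.70 and 5.58 in the IL-6 arrays and 5.67, 5.70 and 5.71 in the saline arrays. The groups overlapped, and the saline arrays lay within a narrow band (SD 0.02). Its difference was -0.05 ± 0.07 (limma adjusted p = 0.957), with an unadjusted 95% interval of 0.861-fold to 1.08-fold. Leaving out IL-6 replicate 2 gave -0.09, and leaving out IL-6 replicate 3 gave -0.03.

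**Figure D2:**
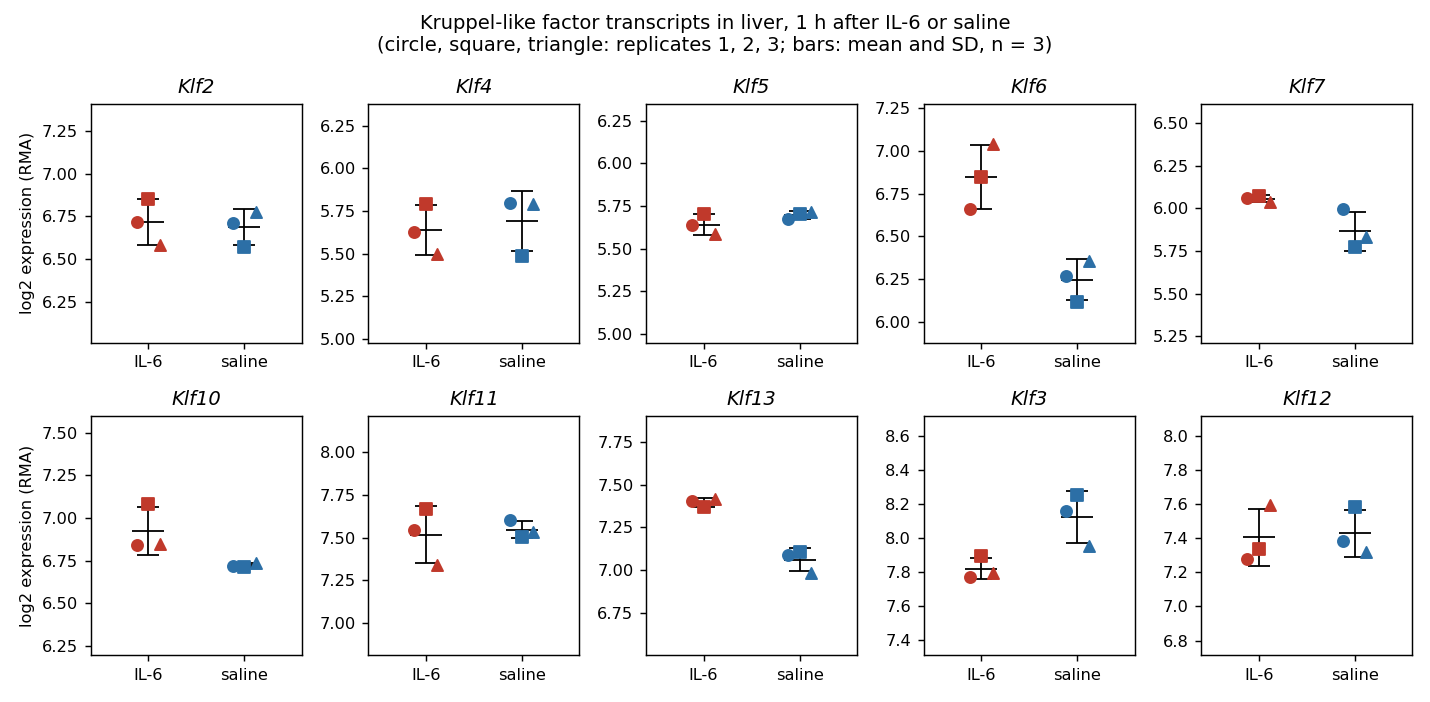
Log2 expression of each KLF in the 3 IL-6 arrays (left in each panel) and the 3 saline arrays (right); symbols are single arrays, bars are mean and SD, and every panel spans the same number of log2 units. IL-6 arrays lie above saline arrays for Klf6, Klf7, Klf10 and Klf13, below them for Klf3, and overlap them for the other 5 genes.

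Of the members that recruit SIN3, Klf13, a regulator of chemokine transcription in T lymphocytes, measured 7.40, 7.37 and 7.42 in the IL-6 arrays and 7.09, 7.10 and 6.98 in the saline arrays. Both groups were tight (SD 0.03 and 0.07) and well separated. The difference was 0.34 ± 0.07 (limma adjusted p = 0.157, unadjusted p = 0.00115), a fold of 1.26 with an unadjusted 95% interval of 1.13 to 1.41. It was smaller than that of Klf6 but moved little with the arrays used, from 0.30 to 0.36 over all alternatives. Its limma adjusted p rose to between 0.321 and 0.459 on leaving out any 1 array. Without both IL-6 replicate 3 and saline replicate 2 it was 0.545.

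Klf10, first described as an early gene induced by TGF-beta, measured 6.84, 7.08 and 6.85 in the IL-6 arrays and 6.72, 6.71 and 6.73 in the saline arrays. The saline arrays lay close together (SD 0.01), and IL-6 replicate 2 stood above the other IL-6 arrays. The difference was 0.20 ± 0.09 (limma adjusted p = 0.721), and 0.12 without IL-6 replicate 2 (limma adjusted p = 0.919), 1.66 times smaller. The mean of 11 Kupffer cell and macrophage markers was also highest in IL-6 replicate 2, at 6.71, against 6.33 to 6.51 in the other 5 arrays. So was the mean of 16 immediate-early transcription factors, at 6.54 against 5.98 to 6.40. That of 9 neutrophil markers was 4.44, barely above the 4.41 of IL-6 replicate 1, and 5 of these 9 lay below the 25th percentile of level. The mean of 12 sinusoidal endothelial markers was lowest in IL-6 replicate 2, at 7.42 against 7.50 to 7.63. The part of any of these in the Klf10 value was not tested. In whole liver, a change in the number of cells of a type and a change in RNA per cell cannot be told apart.

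Klf11, a relative of Klf10 known for regulating metabolic genes, measured 7.54, 7.67 and 7.34 in the IL-6 arrays and 7.60, 7.50 and 7.53 in the saline arrays. The groups overlapped, and the IL-6 arrays alone spanned the whole saline range. Its difference was -0.03 ± 0.09 (limma adjusted p = 0.980), and it turned to 0.06 without IL-6 replicate 3.

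Of the members that bind CtBP, Klf3, a repressor known from fat and blood cells, measured 7.77, 7.89 and 7.80 in the IL-6 arrays and 8.16, 8.25 and 7.95 in the saline arrays. It had the lowest difference of the family, with every IL-6 array below every saline array, though IL-6 replicate 2 and saline replicate 3 lay close to each other. The difference was -0.30 ± 0.09 (limma adjusted p = 0.482, unadjusted p = 0.00943), and it ranged from -0.38 to -0.22 over the alternatives. Klf12, a repressor of the gene for AP-2 alpha, measured 7.28, 7.34 and 7.59 in the IL-6 arrays and 7.38, 7.58 and 7.32 in the saline arrays. The groups overlapped, with the highest arrays being IL-6 replicate 3 and saline replicate 2, and the difference was -0.02 ± 0.11 (limma adjusted p = 0.986). Without IL-6 replicate 1, IL-6 replicate 2 or saline replicate 2, the Klf12 difference turned positive (up to 0.05).

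**Figure D3:**
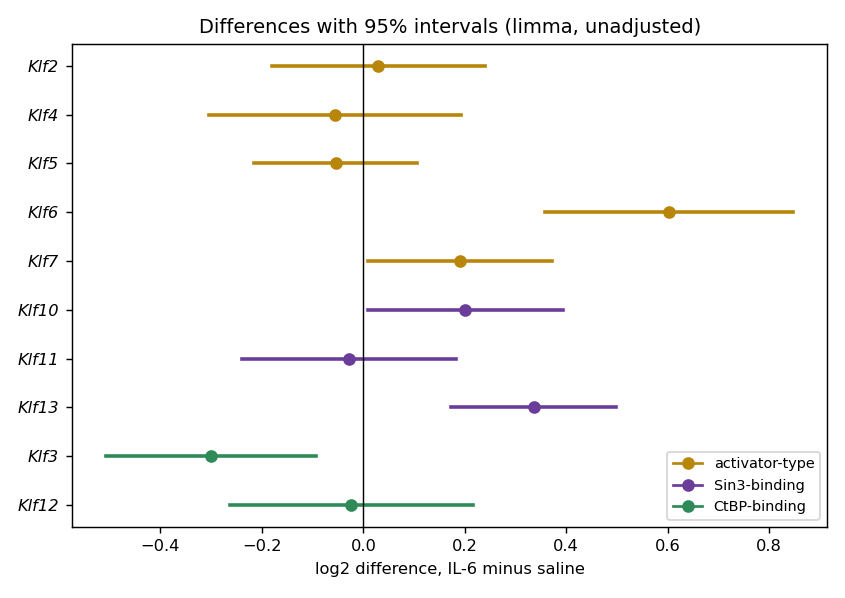
Log2 difference, IL-6 minus saline, of each KLF (points) with its unadjusted 95% interval from limma (lines), coloured by branch of the family. The interval of Klf6 runs from 0.36 to 0.85 and that of Klf3 from -0.51 to -0.09, and the intervals of Klf2, Klf4, Klf5, Klf11 and Klf12 include 0.

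By branch, 0 of 5 activator-type, 0 of 3 SIN3-recruiting and 0 of 2 CtBP-binding members passed the test. With 0.421% of all genes passing, counts of 0 in such small sets are close to the background. The median differences were 0.03 for the activator-type, 0.20 for the SIN3-recruiting and -0.16 for the CtBP-binding members. Within the activator-type branch the groups stood apart in Klf6 and Klf7 and overlapped in Klf2, Klf4 and Klf5, where they stood apart in 11.6% of all genes. The branches were not tested against each other.

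In several members the same 2 arrays were the lowest or the highest of their groups. In Klf2, Klf4, Klf7 and Klf11, IL-6 replicate 3 was the lowest IL-6 array and saline replicate 2 the lowest saline array, and in Klf12 and Klf13 the same arrays were the highest of their groups. These are the arrays that the second principal component set apart. Together this held for 6 of 10 members and for 30.8% of all genes, and it was noticed in these values and not tested. Without both arrays the differences were 0.04 for Klf2, -0.09 for Klf4, 0.16 for Klf7 and 0.04 for Klf11. They were -0.04 for Klf12 and 0.35 for Klf13. With all arrays these 6 members had 0.03, -0.06, 0.19, -0.03, -0.02 and 0.34, in the same order. Outside the pattern, leaving both out took Klf6 from 0.60 to 0.44, Klf10 from 0.20 to 0.23, Klf3 from -0.30 to -0.22 and Klf5 from -0.05 to -0.02. None passed the threshold with or without these arrays.

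**Figure D4:**
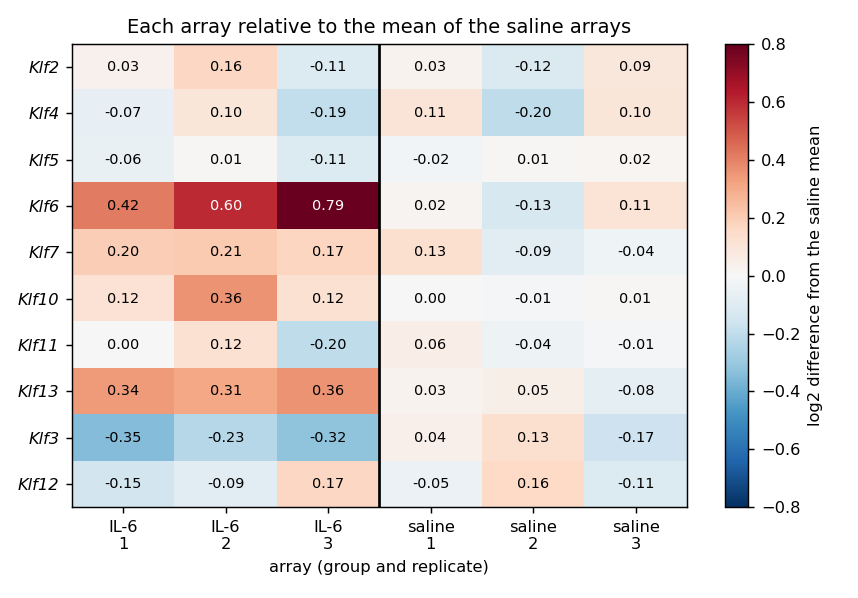
Each KLF in each array as the log2 difference from the mean of the 3 saline arrays, IL-6 arrays on the left and saline arrays on the right; red is above and blue below the saline mean. Klf6 is highest in IL-6 replicate 3 (0.79), Klf10 in IL-6 replicate 2 (0.36), and Klf13 lies between 0.31 and 0.36 in all 3 IL-6 arrays.

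Related genes gave few calls. Of 5 other KLF genes measured (Klf1, Klf8, Klf14, Klf16 and Klf17), none passed in limma (0 at an unadjusted p under 0.05) and all 5 had negative differences, with a median of -0.14 against 0.003 for all genes. The lowest was Klf17 at -0.20 ± 0.10 (limma adjusted p = 0.804; -0.10 without IL-6 replicate 2), and it and Klf8 lay below the 25th percentile of level. Of 8 SP factors, the closest relatives of the KLFs, none passed in limma (0 at an unadjusted p under 0.05), with differences from -0.22 for Sp6 to 0.08 for Sp3. Without IL-6 replicate 3 these were -0.09 and 0.02, and without IL-6 replicate 1 that of Sp3 was 0.13.

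Genes for proteins that KLFs work with gave no call. Of 14 corepressors, coactivators and ubiquitin ligases of KLFs, none passed in limma (0 at an unadjusted p under 0.05). Their differences lay between -0.11 for the deacetylase gene Hdac2 and 0.09 for Ctbp2, which encodes a CtBP corepressor, and Sin3b, which encodes a SIN3 scaffold, had 0.08 ± 0.07 (limma adjusted p = 0.931). Leaving out 1 array at a time, the difference of Ctbp2 ran from 0.007 (without IL-6 replicate 1) to 0.16 (without IL-6 replicate 3). That of Hdac2 was -0.07 without IL-6 replicate 2 or without saline replicate 1, and that of Sin3b was 0.05 without IL-6 replicate 2 or without saline replicate 3.

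The pathways that induce KLFs were described in the same way. Of 7 genes of the MEK5-ERK5-MEF2 axis, which drives Klf2 and Klf4 in endothelium, none passed in limma and 1 had an unadjusted p under 0.05, Mef2c at 0.18 ± 0.08 (limma adjusted p = 0.750). Of 13 genes of TGF-beta and SMAD signalling, which induces Klf10 and Klf11, none passed in limma and 2 had an unadjusted p under 0.05. These were Smad7, the inhibitory SMAD, at -0.41 ± 0.13 (limma adjusted p = 0.529) and the corepressor gene Tgif1 at -0.17 ± 0.07 (limma adjusted p = 0.692). The groups overlapped in Smad7. Leaving out 1 array at a time, its difference ran from -0.53 (without IL-6 replicate 1) to -0.29 (without saline replicate 1).

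Endothelial genes downstream of KLF2 and KLF4 showed no call either. Of 12 genes listed as activated by these factors, 10 had positive differences, against 10188 of all 19938 genes. None passed in limma, and 1 had an unadjusted p under 0.05, the sphingosine phosphate receptor gene S1pr1 at 0.29 ± 0.13 (limma adjusted p = 0.750). Its value rested on saline replicate 2, without which it was 0.15 (limma adjusted p = 0.939). Of 9 genes listed as repressed by them, none passed in limma, with 1 at an unadjusted p under 0.05. This was Icam1, a leukocyte adhesion gene, at 0.42 ± 0.08 (limma adjusted p = 0.0984), and 3 settings placed it past the threshold (limma adjusted p = 0.0316 to 0.0483). The mean level of 12 sinusoidal endothelial markers was 7.61, 7.42 and 7.63 in the IL-6 arrays and 7.58, 7.53 and 7.50 in the saline arrays, so the groups overlapped, and none of the 12 passed in limma (0 at an unadjusted p under 0.05). Tek of the activated list and Kdr of the repressed list are also among these 12 markers, so the lists are not separate.

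Immediate-early transcription factors, which share rapid induction with Klf2, Klf4, Klf6 and Klf10, held the only calls among the 8 lists beside the cell type markers. Of 16 genes, 4 rose and 12 did not pass (limma), where 0.386% of all genes rose. Their median difference was 0.21, against 0.003 for all genes. The IL-6 arrays lay above all saline arrays in 8 of the 16, against 6.15% of all genes. The list was chosen with earlier results of these data known, so these shares describe it and do not test it. The zinc-finger factor Egr1 rose by 1.36 ± 0.14 (limma adjusted p = 0.00254), and the AP-1 genes Jun and Junb rose by 1.32 ± 0.13 and 1.07 ± 0.10. Atf3, a stress-induced factor, rose by 0.58 ± 0.09 (limma adjusted p = 0.0230), a difference close in size to the 0.60 of Klf6, which did not pass. Atf3 no longer passed when IL-6 replicate 1, 2 or 3 or saline replicate 2 or 3 was dropped (limma adjusted p of 0.0740 to 0.0965). All 4 calls were lost when every probe set of the array was tested (limma adjusted p from 0.0651 to 0.150).

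**Figure D5:**
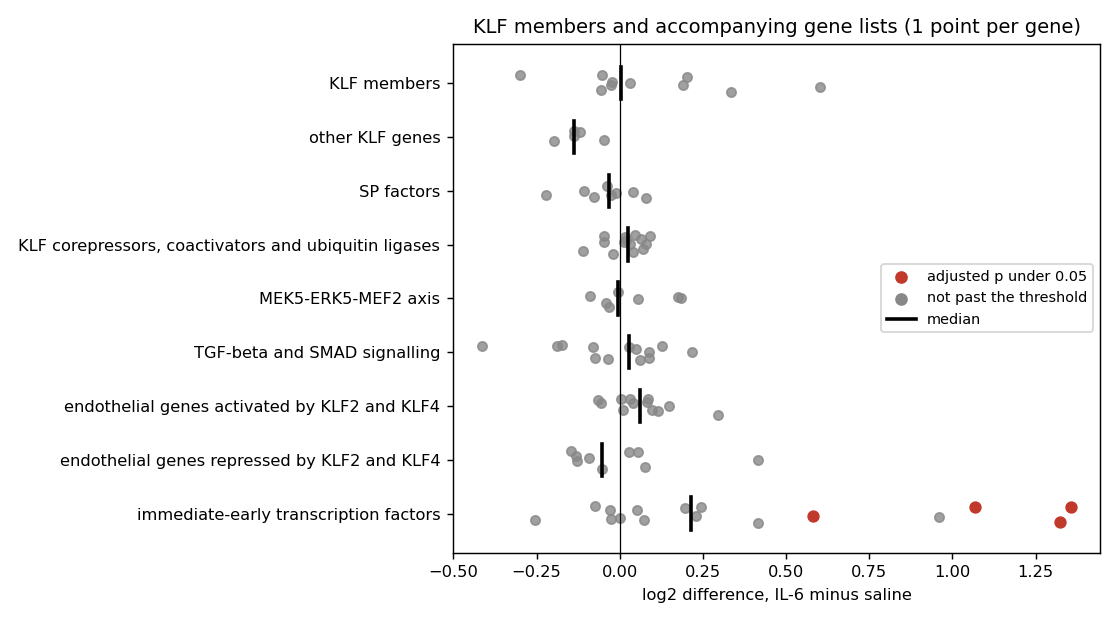
Log2 difference, IL-6 minus saline, of every measured gene of the KLF members and of 8 accompanying lists (1 point per gene, vertical line for the median); red points passed limma at an adjusted p under 0.05. Among the lists shown, only the immediate-early list holds red points, 4 of 16, and among the KLFs Klf6 lies farthest to the right at 0.60.

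Markers of other cells in the liver are given beside these values. None of the 8 hepatocyte, 11 Kupffer cell and macrophage, 10 stellate cell and fibroblast, 5 cholangiocyte, 8 T and NK cell, 4 B cell and 2 erythroid markers passed in limma. At an unadjusted p under 0.05 there were 2 Kupffer cell, 1 stellate cell and 1 cholangiocyte markers, against 6.62% of all genes. Differences were positive in 10 of the 11 Kupffer cell, 4 of the 5 cholangiocyte and 2 of the 8 T and NK cell markers. The cholangiocyte mean was 5.33 to 5.45 in the IL-6 arrays and 5.26 to 5.30 in the saline arrays, without overlap. The mean of the stellate cell and fibroblast markers, the cells best known for Klf6, was 6.85 to 6.89 in the IL-6 arrays and 6.79 to 6.87 in the saline arrays, and the groups overlapped. Of the 10, 7 had positive differences, and the values ran from 0.22 ± 0.08 for Hgf, a growth factor of stellate cells, down to -0.19 ± 0.09 for Acta2, an actin of activated stellate cells (limma adjusted p = 0.620 and 0.795). Of 9 neutrophil markers 4 had positive differences, with a median of -0.01, and 2 had an unadjusted p under 0.05, in opposite directions. S100a8, a calcium-binding protein of neutrophils, rose by 0.65 ± 0.09 (limma adjusted p = 0.0211), and Ly6g, a neutrophil surface protein, had -0.27 ± 0.10 (limma adjusted p = 0.655), while S100a8's partner S100a9, named after its value was seen, had -0.01 ± 0.07. The mean of the list was 4.15 to 4.44 in the IL-6 arrays and 4.25 to 4.33 in the saline arrays. Of these 9 markers 5 lay below the 25th percentile of level, S100a8 (percentile 15.1) and Ly6g (10.8) among them. S100a8 no longer passed when IL-6 replicate 1 or 2 or any saline replicate was dropped. The part of these cells in the KLF values was not tested.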

How the data were processed

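Total RNA of 6 whole-liver samples was labelled with an Affymetrix whole-transcript kit, per the labels' protocols. The authors deposited log2 values, 1 per probe set, from RMA (named in the submitters' processing notes, with version and settings not given in the sources used here). RMA quantile-normalizes the arrays and can compress large changes. The deposited values were used as they were (array medians 5.42 to 5.48), and the number of arrays limits the precision.

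Of 35556 probe sets, 21789 had exactly 1 platform-table symbol. For 999 genes with several, the probe set with the highest mean was kept, which left 19938 genes, with no filter on dim genes. IL-6 was compared with saline with lmFit and eBayes in limma 3.58.1 (R 4.3.3), two-sided, with Benjamini-Hochberg adjustment and a threshold of 0.05. An exact permutation test of 3 against 3 cannot give a p under 0.1. Named genes were the 10 members, Socs3, Saa1 and Stat3 as checks, and up to 4 genes of each of 8 lists and 2 of each of 9 marker lists, with called genes taken by size before others by p. Members and lists were chosen with earlier results of these data known. Alternatives were 19 fixed settings of scaling, filters, probe sets, variance prior, weights, replicate block, threshold and left-out arrays, and 1 added after seeing the data. Motifs were searched in RefSeq windows on GRCm38.p6, which may not be the build of the array design. Plots used matplotlib 3.10.9 (Python 3.11.15).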

Additional observations from a re-analysis of the deposited data

How the results depend on the processing

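The count of 0 KLF members called higher became 1, Klf6, with median centring (limma adjusted p = 0.0490), without genes below the 25th percentile of level, with a variance prior with a trend, with that prior and robust fitting, and at an adjusted p under 0.1. It became 2, Klf6 and Klf13 (limma adjusted p = 0.0286 and 0.0483), without genes below the median, where fewer genes were tested and Klf4 and Klf5 were left out. It stayed 0 under the other settings, and at 0 to 0 on leaving out any 1 array. The count of members called lower was 0 under all settings. Over its alternatives Klf6 ranged from 0.44 to 0.70 (limma adjusted p from 0.0275 to 0.448) the highest value being without IL-6 replicate 1. Klf3, Klf5, Klf6, Klf7, Klf10 and Klf13 kept their sign under every setting run, and Klf2, Klf4, Klf11 and Klf12 did not.

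With the replicate number as a block, 0 members were called higher and the limma adjusted p of Klf6 was 0.0708; the block ended the calls of Stat3, Atf3 and S100a8 among the named genes. Same-numbered arrays did not deviate together (correlations of 0.08, -0.12 and -0.09 over genes for replicates 1, 2 and 3). These values cannot show whether such arrays shared a processing step, and the labels name no batch. Over all genes, 77 higher and 7 lower became 16 and 1 when every probe set was tested, 40 and 3 at an adjusted p under 0.01, and 31 and 2 without the 2 arrays set apart by the second component, and leaving out 1 array gave 45 to 67 higher and 3 to 5 lower. At an adjusted p under 0.1 there were 97 higher and 12 lower. The cause of these shifts was not tested. Background signal per probe set was not analysed here, so how far dim levels limit the smaller differences is not known.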
